A study of Mus musculus with 6 samples.

Results

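Genes of glycolysis and of the cellular response to low oxygen were followed in mouse embryos of 9.5 days post coitum, in tissue at the level of the somites, from pools labelled Dll3 mutant or wild-type. They were taken from a list of 37 genes, of which 23 encode glycolytic enzymes and transporters and 14 are other targets or regulators of the hypoxia response. A gene was kept where the series table held a probe set annotated with its symbol alone, which was so for 33 of them, 21 glycolytic and 12 other, among 12394 genes of the whole table. The probe sets with the Gapdh symbol alone were all controls, and 2 more carry other symbols as well. So 32 of the 33 genes entered the test over 12393 genes. Bnip3l was left out because its 3 probe sets also carry the symbol of a pseudogene. Gpi1, Eno1 and Ankrd37 had no probe set with their symbol in the annotation used, so only their promoters were read.

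The mutant embryos carried the Dll3neo allele (Dll3-tm1Rbe) on both chromosomes, and the wild-type embryos were Dll3+/+. Both are labelled c57bl/6. There were 3 pools of embryos per genotype, each measured on its own MOE430A array, and the sources used here do not say how many embryos made a pool. The tissue ran from the level of the otic placode to the last formed somite, without heart and endoderm, so it holds neural tube, blood vessels and other tissue beside the somites. In such bulk tissue fewer cells of a type and less RNA per cell cannot be told apart.

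Glycolysis splits glucose into pyruvate in the cytosol and yields ATP without oxygen, and lactate dehydrogenase then turns pyruvate into lactate, which leaves the cell through monocarboxylate transporters. When oxygen is short, prolyl hydroxylases (the Egln enzymes) no longer mark HIF-1 alpha for destruction, and the factor binds ACGTG or GCGTG elements near its targets, many of which are glycolytic genes. The presomitic mesoderm and young tissues of the mouse embryo are known for active aerobic glycolysis, and embryos at this stage develop in low oxygen.

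Each deposited value relates a pool to a reference for that probe set, as a ratio, and values are compared between pools and never between genes. A gene's value is the geometric mean of the ratios of its probe sets, and differences are given on the log2 scale as mutant minus wild-type. Over all genes limma found none past an adjusted p of 0.05 (Benjamini-Hochberg), and 331 genes (2.67%) had an unadjusted p under 0.05. The median log2 difference of all genes was 0.003. Dll3 itself, a Notch ligand gene, had a ratio of 0.996, 1.013 and 0.941 in mutant pools 1 to 3, against 0.960, 1.004 and 1.03 in wild-type pools 1 to 3, so its 1 probe set showed overlapping groups (log2 difference -0.02, SE 0.073). Where that probe set lies relative to the neo insertion is not stated, so it does not check the labels. The pools differed in their sex-linked transcripts: the log2 level of Xist minus the mean of the Y-linked genes Eif2s3y, Kdm5d and Uty (the sex score) was 0.04, 0.81 and 0.73 in mutant pools 1 to 3, against -0.08, -1.48 and -1.73 in wild-type pools 1 to 3. The log2 difference between the 3' and 5' control probe sets of Gapdh compares RNA integrity between pools only. It was -0.07 to 0.01 in mutant pools and -0.07 to 0.07 in wild-type pools. Each of these probe sets is scaled to its own reference, so values near 0 do not show that the RNA was intact. Ratios hold no signal level, so whether somite or other marker genes were present could not be read. The precision is limited by the number of arrays, 3 per genotype.

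No gene of the 32 passed the adjusted threshold in limma (adjusted p = 0.9997 for each), against 0% of all genes. Of the 32, 26 had a log2 difference above 0 and 6 below 0, while 51.9% of all genes were above 0 and 48.1% below. The members had been listed with their earlier behaviour in these data known, so this count is a description. The differences were small: 23 of the 32 lay within 0.1 of 0, and 21 were smaller than their own standard error. The 95% intervals ran from -0.27 at the lowest bound to 0.54 at the highest, and 31 of 32 held 0. The exception was Bnip3, the 1 gene with an unadjusted p under 0.05 and a positive difference, a group that held 1.31% of all genes. This count was 0 without mutant pool 2 or wild-type pool 3, 2 without mutant pool 1 (Hk1 and Slc16a3), 4 without wild-type pool 1 (Aldoa, Bnip3, Pfkl and Slc16a3) and 1 without wild-type pool 2 (Car9).

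**Figure D1:**
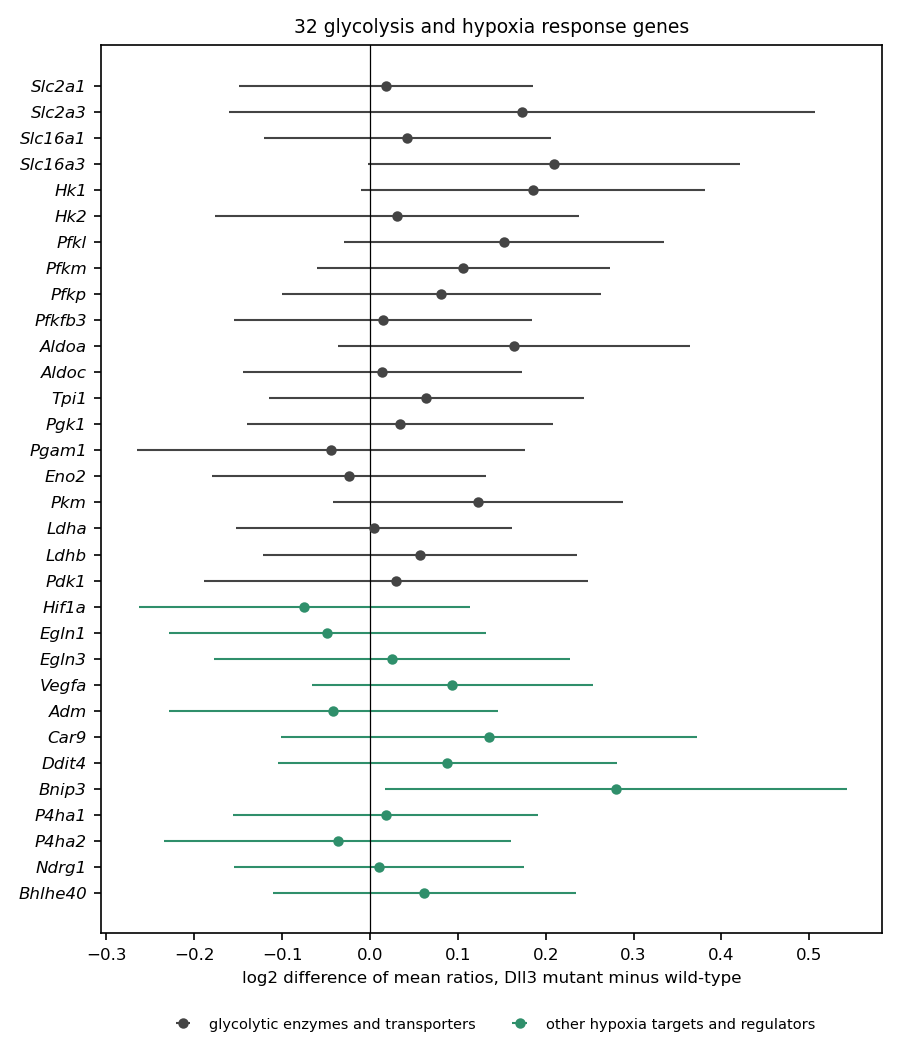
Log2 difference, Dll3 mutant minus wild-type, of the 32 tested genes in the order of the pathway (points, limma estimate; bars, 95% interval; 3 pools per genotype). Glycolytic genes are dark and other hypoxia genes green. The interval of Bnip3 alone lies wholly above 0.

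Among the 4 transporters, all 4 log2 differences were above 0, with a median of 0.11. Slc16a3 encodes MCT4, the monocarboxylate transporter that exports lactate from glycolytic cells. Its ratio was 1, 1.02 and 1.22 in mutant pools 1 to 3, against 1, 0.877 and 0.925 in wild-type pools 1 to 3. The groups met at 1, mutant pool 3 stood highest, and wild-type pools 2 and 3 were the lowest. Mutant pools averaged 1.08 ± 0.122 and wild-type pools 0.934 ± 0.062 (SD, n = 3 each), a log2 difference of 0.21 (SE 0.095). Slc2a3, the high-affinity glucose transporter GLUT3, held both the highest and the lowest ratio of all the genes followed: 1.24, 0.910 and 1.04 in mutant pools 1 to 3, against 0.973, 0.750 and 1.12 in wild-type pools 1 to 3. The groups overlapped, since wild-type pool 3 was above mutant pools 2 and 3. The log2 difference was 0.17 (SE 0.150), and its 4 probe sets gave 0.09 to 0.27. It was 0.01 without wild-type pool 2, 0.05 without mutant pool 1, 0.28 without mutant pool 2 and 0.30 without wild-type pool 3. Slc2a1, the widespread glucose transporter GLUT1, was at 0.02 and Slc16a1, the lactate and pyruvate transporter MCT1, at 0.04, with groups that overlapped in both.

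The first part of the pathway, from hexokinase to aldolase, traps glucose as glucose-6-phosphate and splits fructose-1,6-bisphosphate. All 8 genes tested in it had a log2 difference above 0, with a median of 0.09. Hk1, a widely expressed hexokinase, had a ratio of 0.969, 1.07 and 1.16 in mutant pools 1 to 3, against 0.942, 0.987 and 0.886 in wild-type pools 1 to 3. Mutant pool 1 lay within the wild-type range and the other 2 mutant pools above it. The log2 difference of Hk1 was 0.19 (SE 0.088), and both of its probe sets were higher (0.17 and 0.20). Hk2, the inducible hexokinase and a HIF-1 target, was at 0.03, with its highest ratio, 1.17, in mutant pool 3 and 1.10 in wild-type pool 3. Whether Hk1 and Hk2 differ from each other was not tested.

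Phosphofructokinase, the committed step of glycolysis, is a tetramer of liver, muscle and platelet type subunits. Pfkl, the liver type, had a ratio of 1.06, 1.03 and 1.02 in mutant pools 1 to 3, against 1.01, 0.941 and 0.854 in wild-type pools 1 to 3. Every mutant pool lay above every wild-type pool, with mutant pool 3 close to wild-type pool 1. The log2 difference was 0.15 (SE 0.082), and its 2 probe sets gave 0.22 and 0.08. Pfkm, the muscle type, had a ratio of 0.999, 1.015 and 1.008 in mutant pools and 1.001, 0.917 and 0.893 in wild-type pools, in the order of pools 1 to 3. Wild-type pool 1 was just above mutant pool 1 and the other 2 wild-type pools were below every mutant pool, and the log2 difference was 0.11 (SE 0.075). Pfkp, the platelet type, was at 0.08, but its 2 probe sets differed in sign (0.18 and -0.01). Pfkfb3, which makes the activator fructose-2,6-bisphosphate, was at 0.01.

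Aldoa, the main aldolase of muscle and embryo, had a ratio of 0.995, 1.04 and 1.03 in mutant pools 1 to 3, against 1.005, 0.930 and 0.806 in wild-type pools 1 to 3. Wild-type pool 3 stood far below the rest, and wild-type pool 1 lay among the mutant pools. The log2 difference was 0.16 (SE 0.090), with all 4 probe sets between 0.14 and 0.19. These 4 probe sets all end in x_at, a suffix for probe sets with probes that can also bind other transcripts, and the 4 readings may share sequence. Aldoc, the brain aldolase, was at 0.01.

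The second part of the pathway, from triose phosphate to pyruvate, regains the ATP spent, and its 5 tested genes were split, 3 above and 2 below 0 with a median of 0.03. Pkm encodes pyruvate kinase, which makes pyruvate and ATP in the last step. Its ratio was 1.05, 1.005 and 1.02 in mutant pools 1 to 3, against 0.995, 0.940 and 0.897 in wild-type pools 1 to 3. The groups did not overlap, though mutant pool 2 and wild-type pool 1 were close together. The log2 difference of Pkm was 0.12 (SE 0.074). Tpi1, the triose phosphate isomerase, was at 0.06, Pgk1, which makes the first ATP of this part, at 0.03, the neuronal enolase gene Eno2 at -0.02 and the mutase gene Pgam1 at -0.04. Gapdh, whose 3 control probe sets were added to the fit after the data were seen, had a ratio of 0.999, 1.03 and 0.985 in mutant pools 1 to 3, against 1.03, 0.997 and 0.966 in wild-type pools 1 to 3. The groups overlapped, and the log2 difference of Gapdh was 0.01 (95% interval -0.15 to 0.17).

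The fate of pyruvate is set by lactate dehydrogenase and by pyruvate dehydrogenase, which Pdk1 inhibits by phosphorylation. Ldha, the subunit that favours lactate, had a ratio of 0.969, 1.01 and 1.03 in mutant pools 1 to 3, against 0.986, 0.991 and 1.02 in wild-type pools 1 to 3. The 2 groups covered almost the same range, and the log2 difference of 0.00 (95% interval -0.15 to 0.16) was the smallest of the 32. Ldhb, the heart-type subunit, was at 0.06 with all 4 probe sets above 0, and Pdk1 was at 0.03.

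**Figure D2:**
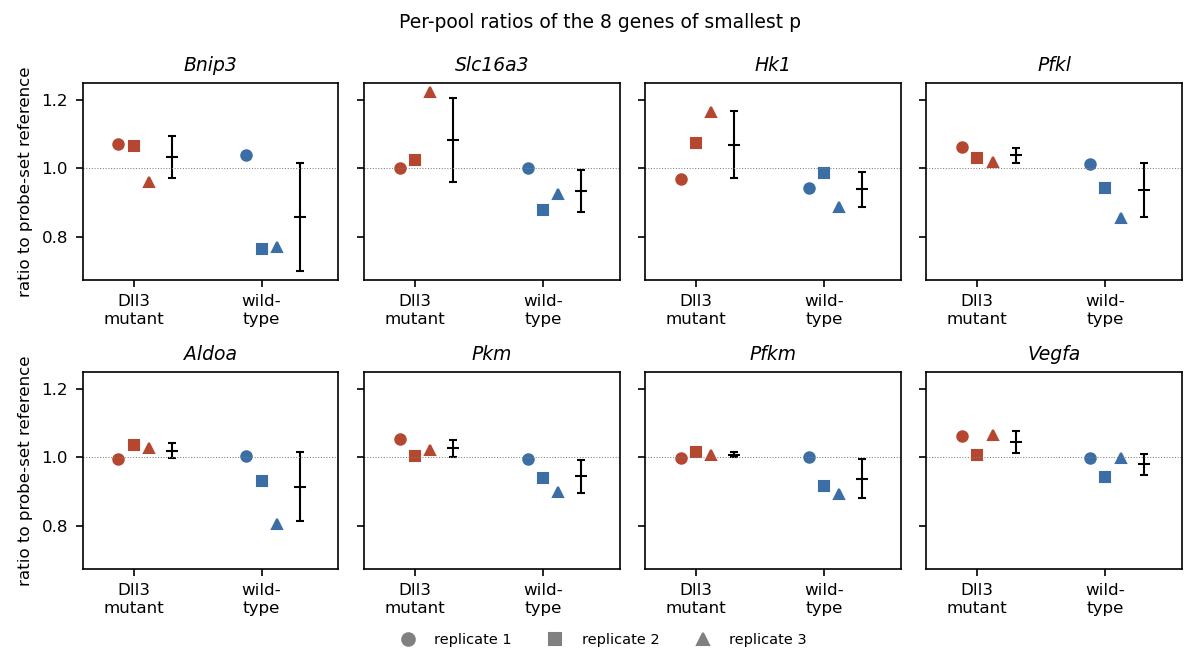
Ratio to the probe set's reference in each pool for the 8 genes of smallest p (symbols, replicate numbers; black bars, mean and SD of 3 pools; dotted line, a ratio of 1). Wild-type pools 2 and 3 lie below 1 in each of the 8 panels, while wild-type pool 1 lies within the range of the mutant pools for Bnip3, Aldoa and Pfkm. All 8 were picked by p, are higher in mutant pools and have probe sets with a median ratio of 1. Low wild-type values therefore follow in part from the choice.

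Of the 12 other hypoxia genes, 8 had a log2 difference above 0 and 4 below 0, with a median of 0.02 against 0.05 for the 20 glycolytic genes, of which 18 were above 0. Hif1a, the oxygen-regulated subunit of HIF-1, had a ratio of 0.988, 0.968 and 0.987 in mutant pools 1 to 3, against 0.940, 1.03 and 1.14 in wild-type pools 1 to 3. The mutant pools lay close together inside the wild-type range. The log2 difference of Hif1a was -0.07 (SE 0.085), with all 4 probe sets below 0 (-0.12 to -0.02). This difference was smaller than its standard error. It was 0.12 once the sex score, which itself parts the genotypes, was added to the fit, so no direction was settled. HIF-1 is regulated mainly through its protein, which these arrays do not measure. Of the prolyl hydroxylases that sense oxygen, Egln1, the main one in development, was at -0.05 and Egln3, itself a HIF target, at 0.02.

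Bnip3 encodes a mitochondrial BH3-only protein that promotes mitophagy in hypoxia. Its ratio was 1.07, 1.06 and 0.961 in mutant pools 1 to 3, against 1.04, 0.763 and 0.771 in wild-type pools 1 to 3. Wild-type pools 2 and 3 were far below the other 4 pools, and wild-type pool 1 lay within the mutant range, so the groups overlapped. Mutant pools averaged 1.03 ± 0.061 and wild-type pools 0.858 ± 0.157 (SD, n = 3 each), and the log2 difference of 0.28 (SE 0.118, limma unadjusted p = 0.0387, adjusted p = 0.9997) was the largest of the 32 and rested on 1 probe set. By unadjusted p Bnip3 stood at rank 252 of all genes.

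The secreted factors and the surface enzyme among the hypoxia targets differed in direction. Vegfa, the growth factor for blood vessels, had a ratio of 1.06, 1.01 and 1.06 in mutant pools 1 to 3, against 0.997, 0.943 and 0.998 in wild-type pools 1 to 3. The groups did not overlap, by the narrow gap between mutant pool 2 and wild-type pool 3, and the log2 difference was 0.09 (SE 0.072). Pfkl, Pkm and Vegfa were the 3 genes of 32 whose mutant pools all lay above the wild-type pools, and 3.98% of all genes did so. None had all mutant pools below, which 3.49% of all genes did. Car9, the membrane carbonic anhydrase used as a hypoxia marker, had a ratio of 1.14, 0.971 and 1.03 in mutant pools 1 to 3, against 0.883, 1.11 and 0.874 in wild-type pools 1 to 3. Wild-type pool 2 was above 2 of the mutant pools, and the log2 difference was 0.14 (SE 0.107). Adm, the vasodilator peptide adrenomedullin, was at -0.04.

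The other intracellular targets stayed near 0. Ddit4, an inhibitor of mTORC1 under stress, was at 0.09, and the transcriptional repressor gene Bhlhe40 at 0.06. The collagen prolyl hydroxylase subunits P4ha1 and P4ha2 were at 0.02 and -0.04. Ndrg1, a stress-induced gene needed for myelin, was at 0.01, and its 5 probe sets ran from -0.13 to 0.11.

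The sequence before the start of transcription was read for the element that HIF-1 binds, because several of these genes are textbook HIF targets. RefSeq promoters (GRCm38.p6) were at hand for 33 of the 37 listed genes, with Slc2a3, Bnip3l, Ndrg1 and Bhlhe40 left out, and the first listed start of each gene was used. They include Gpi1, Eno1 and Ankrd37, so they are not the same 33 genes as those measured. In the 250 bases before the start, ACGTG or GCGTG on either strand was found in 26 of 33 promoters (78.8%), against 38.6% of the promoters of 27025 genes in the table. ACGTG on either strand was found in 54.5%, against 16.6%, and it includes the palindrome CACGTG, which other factors such as Myc also bind and which 15.2% held, against 6.0%. The median GC content was 62.8% for the 33 promoters of listed genes and 52.0% for all promoters. The motifs hold a CpG, so the shares are not matched for base composition. The list was also drawn up in part from known hypoxia targets, so a higher share follows from that choice and is no result of these pools. Among other hypoxia genes 10 of 11 promoters held ACGTG or GCGTG, and among glycolytic genes 16 of 22. The windows of 4 genes are shown, those of the 2 genes with the largest log2 differences (Bnip3 and Slc16a3), of Ldha, whose difference was the smallest, and of Pkm, whose groups did not overlap. Capitals mark ACGTG or GCGTG on either strand, with overlapping matches joined.
Bnip3, chr7:138909507-138909756, minus strand: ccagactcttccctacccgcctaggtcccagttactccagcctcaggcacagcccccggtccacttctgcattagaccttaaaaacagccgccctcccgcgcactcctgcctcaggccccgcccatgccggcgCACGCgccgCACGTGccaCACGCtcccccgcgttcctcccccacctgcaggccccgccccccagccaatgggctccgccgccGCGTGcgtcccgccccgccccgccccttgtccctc
Slc16a3, chr11:120948817-120949066, plus strand: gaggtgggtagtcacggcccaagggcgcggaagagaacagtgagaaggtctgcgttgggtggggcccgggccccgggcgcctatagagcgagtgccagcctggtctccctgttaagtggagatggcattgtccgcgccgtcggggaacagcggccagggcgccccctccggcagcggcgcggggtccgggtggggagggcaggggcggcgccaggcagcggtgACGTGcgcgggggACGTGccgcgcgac
Ldha, chr7:46845554-46845803, plus strand: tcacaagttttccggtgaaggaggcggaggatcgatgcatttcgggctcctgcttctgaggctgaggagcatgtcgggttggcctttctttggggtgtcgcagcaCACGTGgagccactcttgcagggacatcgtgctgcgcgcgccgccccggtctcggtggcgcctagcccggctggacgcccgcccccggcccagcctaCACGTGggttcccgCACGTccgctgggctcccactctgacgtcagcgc
Pkm, chr9:59656326-59656575, plus strand: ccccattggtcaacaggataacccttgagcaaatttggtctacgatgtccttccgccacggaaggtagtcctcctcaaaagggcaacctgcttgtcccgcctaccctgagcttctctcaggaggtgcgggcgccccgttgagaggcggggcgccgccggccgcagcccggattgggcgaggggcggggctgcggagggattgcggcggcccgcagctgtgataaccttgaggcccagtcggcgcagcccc
Bnip3 has 4 such stretches, Slc16a3 has 2, Ldha has 3, of which 2 contain CACGTG, and Pkm has none in this window. The log2 differences did not order by these counts: Ldha was at 0.00 and Pkm at 0.12. Of the 29 tested genes with a promoter, the 23 with a motif had a median log2 difference of 0.03, with 18 above 0, and the 6 without one had a median of 0.11, with 5 above 0. A match of letters is not a bound site, and binding was not measured.

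The pools were not equally far from the middle. Wild-type pool 2 held the lowest ratio for 11 of the 32 genes and the highest for 0, while it was lowest for 18.5% and highest for 13.8% of all genes. Wild-type pool 3 was lowest for 9 and highest for 8, so it stood at one end or the other for 17 of 32. Of all genes it was lowest for 18.9% and highest for 21.4%. Its low genes were Hk1, Pfkl, Pfkm, Aldoa, Aldoc, Pkm, Car9, Egln3 and Bhlhe40, and its high genes Slc2a1, Tpi1, Pgk1, Pgam1, Pdk1, Hif1a, Adm and P4ha2. Mutant pools 2 and 3 were each lowest for 1 gene, and of all genes for 12.8% and 16.1%. Mutant pool 1 was lowest for 6 and highest for 7, and of all genes lowest for 21.0% and highest for 17.9%. Slc2a3 and Bnip3 had the deepest values of wild-type pool 2.

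**Figure D3:**
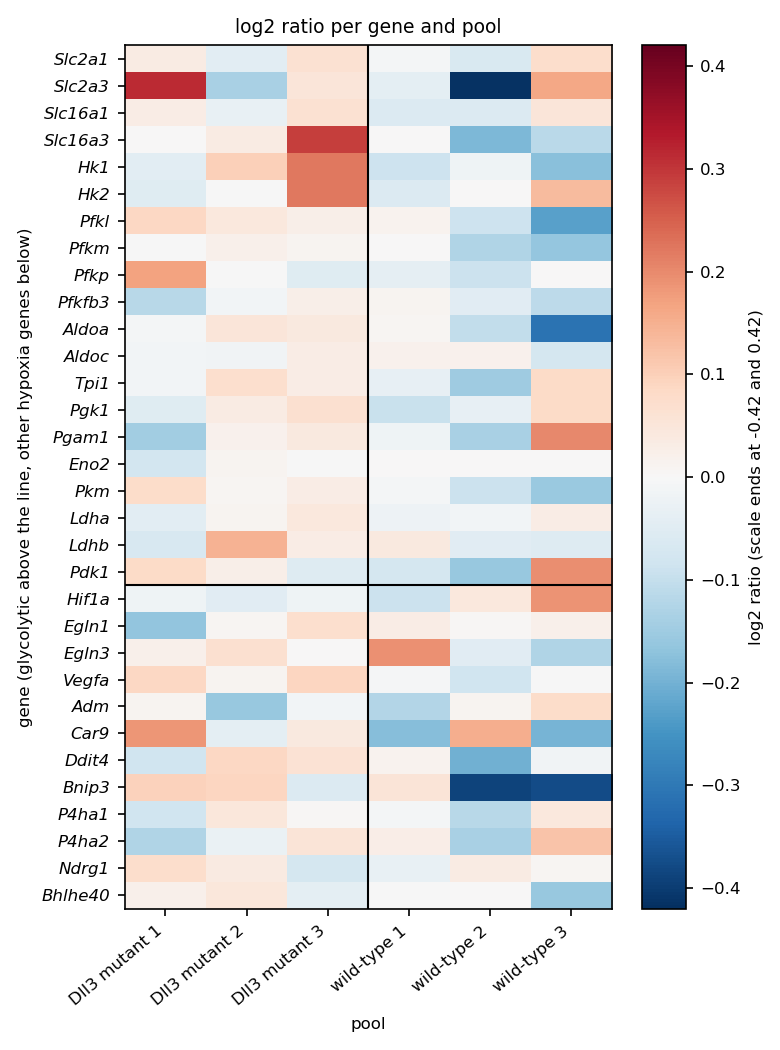
Log2 ratio of the 32 genes (rows, in pathway order) in the 3 Dll3 mutant pools (left) and the 3 wild-type pools (right). Red is above and blue below the probe set's reference. The deepest blue fields are Slc2a3 in wild-type pool 2 and Bnip3 in wild-type pools 2 and 3, and wild-type pool 3 has red and blue rows side by side.

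Averaged over the 20 glycolytic genes, the log2 ratio was 0.01, 0.02 and 0.06 in mutant pools 1 to 3, against -0.02, -0.09 and -0.02 in wild-type pools 1 to 3. Over the 12 other hypoxia genes it was 0.00, 0.01 and 0.01 in mutant pools, against -0.01, -0.06 and -0.03 in wild-type pools, in the same order. In both lists every mutant pool was above every wild-type pool, by narrow margins. Sex-linked transcripts parted the pools the same way, and the part of sex mix in these values was not tested. A fit with the sex score as a covariate cannot test it, because that score itself parts the genotypes. With the sex score as a covariate, chosen with earlier results known, 18 of the 32 genes were above 0, with 49.6% of all genes, and 12 of the 32 changed sign. Those that turned negative were Bnip3 (-0.06), Aldoa (-0.06), Pfkm (-0.03), Ddit4, Bhlhe40, Ldhb, Egln3, P4ha1, Aldoc and Pfkfb3, and those that turned positive were Hif1a (0.12) and Adm (0.15). In that fit Slc16a3 was at 0.03, Pfkl at 0.01, Hk1 at 0.08 and Pkm at 0.04, all nearer to 0 than without the covariate. Vegfa was at 0.09, Tpi1 at 0.06, Pgam1 at -0.04 and Ldha at 0.01, all little changed. Farther above 0 were Slc2a3 (0.32), Car9 (0.31), Pdk1 (0.18), Pfkp (0.16), Slc16a1 (0.11), Pgk1 (0.11), Hk2 (0.10), Ndrg1 (0.09) and Slc2a1 (0.06). Farther below 0 were Egln1 (-0.14), P4ha2 (-0.09) and Eno2 (-0.06).

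Where a gene had several probe sets, they give a second reading from the same RNA. Of the 18 tested genes with more than 1, 12 had all probe sets on the same side of 0 (10 above and 2 below) and 6 had them on both sides. Over all genes with several probe sets the same side was held by 41.6%, but that share depends on how many probe sets a gene has. The 64 probe sets of the 32 genes had 47 differences above 0, with 51.5% of all probe sets above 0. At an unadjusted p under 0.05 there were 2, for Bnip3 and for 1 of the 2 of Pfkl, where 2.63% of all probe sets lay, and none passed the adjusted threshold in limma, as for 0% of all probe sets.

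**Figure D4:**
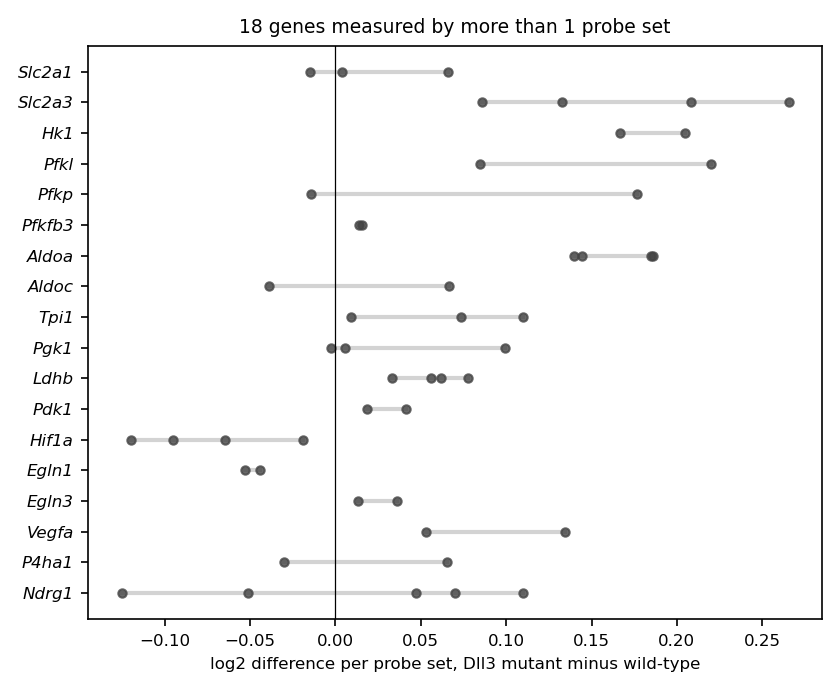
Log2 difference, Dll3 mutant minus wild-type, of each probe set (points) for the 18 genes with more than 1, joined by grey bars. Hif1a and Egln1 lie wholly below 0, and Slc2a3, Hk1, Pfkl, Aldoa, Tpi1, Ldhb, Pdk1, Pfkfb3, Egln3 and Vegfa wholly above.

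Neighbouring pathways were set beside these genes. Of 27 other genes of glycolysis, gluconeogenesis and pyruvate use, 12 were above 0 and 15 below, with a median of -0.01. Pck1, the entry enzyme of gluconeogenesis, had the smallest p among them (-0.18, SE 0.076), with all mutant pools below all wild-type pools. Its ratio ran from 0.64 to 0.79, below the reference in every pool, unlike most genes of the table. Mpc1, a subunit of the mitochondrial pyruvate carrier, was at 0.22 (SE 0.125). Of 31 other genes of oxygen sensing and hypoxia targets, 17 were above 0, with a median of 0.00. Fam162a, a HIF target linked to mitochondrial apoptosis, was at 0.16 and Arnt, the partner subunit of HIF-1 alpha, at -0.15. In the pentose phosphate pathway, which branches from glucose-6-phosphate, 5 of 8 genes were above 0 (median 0.04), with Taldo1, the transaldolase, at 0.14 and H6pd at 0.10.

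Genes of oxidative metabolism lay around 0 in the comparison and varied more between pools of a genotype. In the TCA cycle 9 of 19 genes were above 0 (median -0.01), with Suclg2, a succinyl-CoA ligase subunit, at -0.10 and the succinate dehydrogenase gene Sdha at -0.08. In the nuclear-encoded respiratory chain 10 of 22 were above 0 (median 0.00), with the cytochrome oxidase isoform gene Cox4i2 at -0.13 and the complex III gene Uqcrc1 at 0.08. The mean log2 ratio of respiratory chain genes was -0.10, 0.07 and 0.01 in mutant pools 1 to 3, against -0.03, -0.05 and 0.10 in wild-type pools 1 to 3. No gene of these 5 lists passed the adjusted threshold in limma, and Pck1 alone had an unadjusted p under 0.05, where 1.36% of all genes lay on the lower side.

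The mean log2 ratios of muscle and heart markers parted by genotype, and those of the other 6 marker lists overlapped. Of 10 primitive erythroid genes measured, 8 were above 0 (median 0.21), and their mean log2 ratio was -0.01 to 0.21 in mutant pools and -0.14 to 0.00 in wild-type pools, with mutant pool 3 just below wild-type pool 1. All 6 skeletal muscle genes were above 0 (median 0.34), with a mean of 0.10 to 0.47 in mutant pools and -0.18 to -0.07 in wild-type pools. Heart genes, in tissue said to be cleared of heart, were above 0 for 4 of 7 (median 0.06), with a mean of -0.04 to -0.01 in mutant pools and -0.11 to -0.08 in wild-type pools. The heart mean leaned on 1 gene, Tnnt2 at 0.29, while the others lay between -0.06 (Nppa) and 0.10 (Myh6). Endothelial genes were above 0 for 6 of 8 (median 0.07), surface ectoderm for 5 of 6 (0.15), neural tube for 5 of 7 (0.02), somite for 4 of 11 (-0.03) and endoderm and yolk sac for 2 of 6 (-0.02). The erythroid and muscle genes were highest in mutant pool 2, the glycolytic genes in mutant pool 3. None of these marker genes passed the adjusted threshold in limma. An unadjusted p under 0.05 with a positive difference (1.31% of all genes) was found for 5 erythroid genes, led by Hemgn at 0.34 and the anion exchanger gene Slc4a1 at 0.28, and for 4 muscle genes, led by the slow troponin gene Tnnt1 at 0.46 and the myogenic factor gene Myog at 0.30. It was also found for the endothelial connexin gene Gja5 (0.18) and the heart troponin gene Tnnt2 (0.29), and Myog is a somite marker as well. On the lower side, where 1.36% of all genes lay, it was found for the somite marker Uncx, at -0.998 the gene of smallest p in the whole table, with every mutant pool below every wild-type pool. The part of cell mix in the values of the glycolytic and hypoxia genes was not tested.

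**Figure D5:**
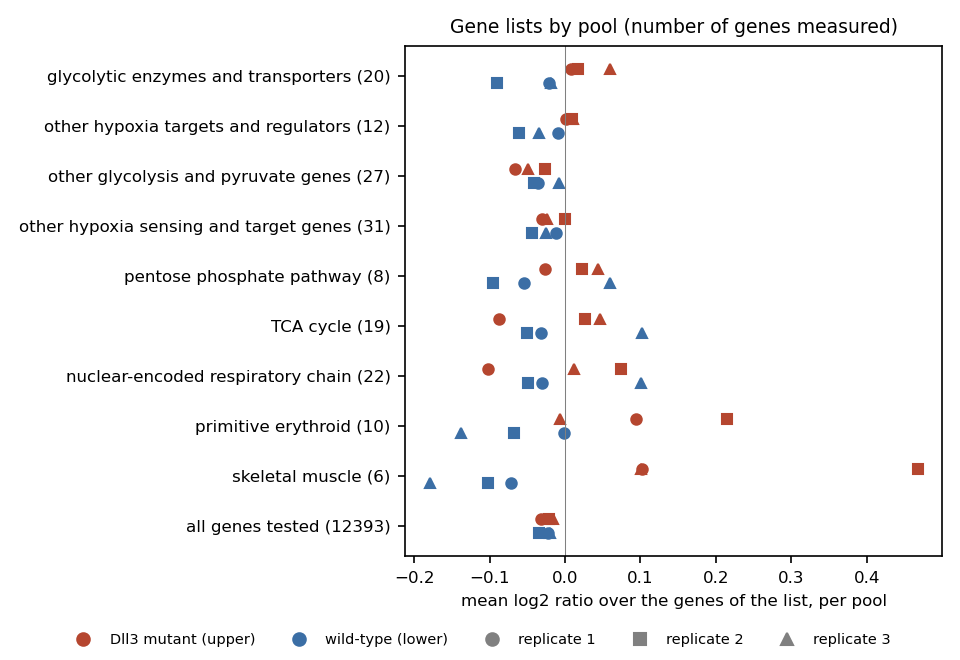
Mean log2 ratio per pool of each gene list (Dll3 mutant pools red, above; wild-type pools blue, below; symbols, replicate numbers; number of genes in brackets). The glycolytic and other hypoxia genes part by genotype within a narrow range and muscle genes within a wider one, erythroid genes overlap at mutant pool 3 and wild-type pool 1, and TCA cycle and respiratory chain genes mix the genotypes.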

How the data were processed

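Somite-level tissue RNA of 3 Dll3 mutant and 3 wild-type pools was measured on MOE430A arrays. The authors deposited 1 table of 22690 probe sets. The authors made these values as ratios of each pool to a reference of the probe set before they were deposited, as read from the values, since the median over the 6 pools is 1 (within 0.0015) in 93.4% of rows and higher in none. The submitters' processing notes name RMA and MAS5 but give neither a version nor a role, and how arrays were scaled is not stated in the sources used here. Groups came from the sample titles.

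The 64 control probe sets were left out. Log2 ratios (no pseudocount) of the probe sets with a single symbol were averaged per gene (20380 probe sets, 12393 genes; 691 probe sets with several symbols and 1555 with none were not named) and tested by the moderated linear model of limma 3.58.1 (R 4.3.3; genotype as the only term, no trend, two-sided, Benjamini-Hochberg adjusted over all genes). Symbols are those of the platform annotation. Genes given in full by rule are the 8 of smallest p, and of neighbouring pathways the 2 of smallest p are named. Car9, Slc2a3, Hif1a, Ldha and Gapdh are given per pool, and marker genes named, after their values were seen. The members and lists were chosen with earlier results of these data known. An exact permutation test of 3 against 3 pools cannot go below 0.1 and was not run. The script was tested on simulated data. Plots used matplotlib 3.10.9. Settings varied were the replicate block, trend, array weights, 2 normalizations, left-out pools, other choices of probe sets and the sex score.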

Additional observations from a re-analysis of the deposited data

How the results depend on the processing

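The fit with Gapdh's control probe sets was added after seeing the data, and 0 members passed the adjusted threshold in it. No member passed in any other alternative (lowest adjusted p 0.495), and 10 of 32 kept their sign in all of theirs, namely Slc16a1, Slc16a3, Slc2a3, Hk1, Pfkl, Pfkp, Tpi1, Pkm, Vegfa and Car9. Leaving pools out lowers the number of samples; beyond that, the cause was not tested for any change listed here. The sex score as a covariate gave Bnip3 -0.0649, Aldoa -0.0643 and Pfkm -0.0302, 5 of 12 other hypoxia genes above 0 with a median of -0.026, 0 members and 156 genes at an unadjusted p under 0.05. The count of genes past the adjusted threshold was 0, against 1 (Uncx) with the replicate block, the variance trend or array weights, and 0 to 1 (Xist, without wild-type replicate 1) with pools left out. Genes at an unadjusted p under 0.05 numbered 331, against 617 with the replicate block, 1200 with array weights, and 174 to 683 with pools left out. Members among them were 1, against 3 with the replicate block or array weights, 2 with the trend, 0 without both pools numbered 3 and 0 to 4 with pools left out. The median of other hypoxia genes was 0.021, 0.040 without both pools numbered 3 and 0.0084 to 0.055 with pools left out. The glycolytic median stayed above 0 (0.025 to 0.082 over all alternatives). Median centring and quantile normalization left 26 of 32 above 0. The count was 21 without mutant pool 3, wild-type pool 1 or wild-type pool 2, and 24 without both pools numbered 3. It was 25, 26 and 28 without mutant pool 2, wild-type pool 3 and mutant pool 1. In these fits 49.3% to 54.4% of all genes were above 0. Of the 20 glycolytic genes 18 were above 0, against 13 without mutant pool 3, 14 without wild-type pool 1 and 19 without mutant pool 1.

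Residuals of same-numbered pools correlated across genes at 0.36, -0.04 and 0.40, against -0.45 to 0.23 for pools of different numbers. Whether the replicate numbers mark pairs is not settled by these values. With the block no member passed the adjusted threshold either. Aldoa could not be fitted without probe sets ending in x_at or s_at, since it has no others. A filter on dim probe sets was not run, since ratios hold no signal over background. No member's probe set was among the 1497 rows with a median below 1.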
